A study of Mus musculus with 198 samples.

Results

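BXH recombinant inbred strains were compared with AXB/BXA recombinant inbred strains in hippocampus and striatum. The BXH strains were chosen by their names and carry alleles of the inbred strains B6 and C3H, and the strains named AXB or BXA carry alleles of B6 and A (labelled AJ for the parent). The comparison held 76 of the 198 arrays: 11 BXH and 27 AXB/BXA strains of 100 arrays in hippocampus, and 10 BXH and 28 AXB/BXA strains of 98 arrays in striatum. The AXB/BXA strains comprised 14 AXB and 13 BXA strains in hippocampus and 15 AXB and 13 BXA strains in striatum. For its behavioral work the paper used male mice of the Hybrid Mouse Diversity Panel, whose strains went through fear conditioning and memory tests. It does not state whether the mice on the arrays were those tested. The labels name no transgene and no drug. Total RNA of whole hippocampus and whole striatum was hybridized to Illumina MouseRef-8 bead arrays, with 1 array per strain and tissue. Strains are therefore the replicates, and all p-values measure the spread between strains. The B6, AJ and C3H parents had 1 array each per tissue with no replicate, and serve as a description only.

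A recombinant inbred strain is bred from a cross of inbred parents by repeated mating of siblings until it is fixed, at each locus, for the allele of 1 parent. The BXH and AXB/BXA sets share B6 as a parent, so a locus can set them apart through the C3H allele, which segregates only in BXH, or through the A allele, which segregates only in AXB/BXA. Where an allele near a gene changes the signal of that gene's probe, a set that segregates it splits into strains at separate levels, and the set that lacks it stays at the B6 level. The hippocampus, with its excitatory principal neurons, is known for its role in contextual memory, and the striatum is built mostly of GABAergic medium spiny neurons that respond to dopamine.

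The 38 arrays per tissue were alike in quality. Each array had a median Spearman correlation of 0.926 to 0.955 with the other arrays of its tissue and detected 35.2% to 47.0% of the 25697 probes, with the hippocampus array AXB19b left out because it reached only 0.614 and 22.4%. The median intensity was 170.6 to 181.5 in BXH and 169.1 to 192.1 in AXB/BXA hippocampus, and 171.5 to 184.9 in BXH and 176.3 to 195.9 in AXB/BXA striatum. Over 300 probes with separate levels, 35 of the 37 strains with both tissues matched their own strain best (r = 0.773 to 0.956, a description). The exceptions were AXB15 and AXB19: AXB15 in hippocampus matched AXB19 in striatum (r = 0.856), and AXB19 in hippocampus matched AXB15 in striatum (r = 0.922). Since both labels belong to the AXB/BXA set, an exchange touches only values that pair the tissues within a strain. Near alike were BXA1 and BXA8 (r = 0.936 in hippocampus and 0.913 in striatum) and, in striatum, AXB19 and AXB19b (r = 0.9), and each is counted as a strain of its own. Lower values above 0.5 were met for BXH19 with BXH22 in striatum (r = 0.584). They were also met for AXB19a with AXB15, AXB19 or AXB19b (r = 0.509 to 0.584). The striatum arrays carried markers of their tissue. The markers of striatal medium spiny neurons had a mean log2 intensity of 11.84 ± 0.12 (SD, n = 28) in AXB/BXA striatum and of 9.26 ± 0.09 (SD, n = 27) in AXB/BXA hippocampus. In BXH the means were 11.39 ± 0.47 (SD, n = 10) and 9.35 ± 0.10 (SD, n = 11). They are over 11 genes tested in striatum and 9 in hippocampus, and the tissues may differ in normalization, so this is a description.

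Many probes differed between the crosses, with small differences for most and large ones for a few. Values are log2 intensities of the authors' series table. In hippocampus these equal a deposited table labelled as not normalized, so whether they were normalized cannot be told, and with quantile normalization 94.8% of the hippocampus calls were called the same way. A difference is BXH minus AXB/BXA, tested with limma per probe at a Benjamini-Hochberg adjusted p under 0.05. In hippocampus 710 of 12864 tested probes (5.52%) were higher and 947 (7.36%) lower in BXH. In striatum 2405 of 12738 probes (18.9%) were higher and 2070 (16.3%) lower. The median size of a called difference was 0.24 in either tissue, and only 4 hippocampus probes rose and 16 fell by at least 2-fold, against 31 and 10 in striatum. Of the 12230 probes tested in both tissues, 309 (2.53%) were higher and 300 (2.45%) lower in BXH in both. These 609 probes made up 37.8% of the hippocampus calls and 14.3% of the striatum calls that were tested in both tissues, and 132 further probes were called in opposite directions. The tissues came from the same strains, so the other tissue repeats the measurement and not the strains.

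**Figure D1:**
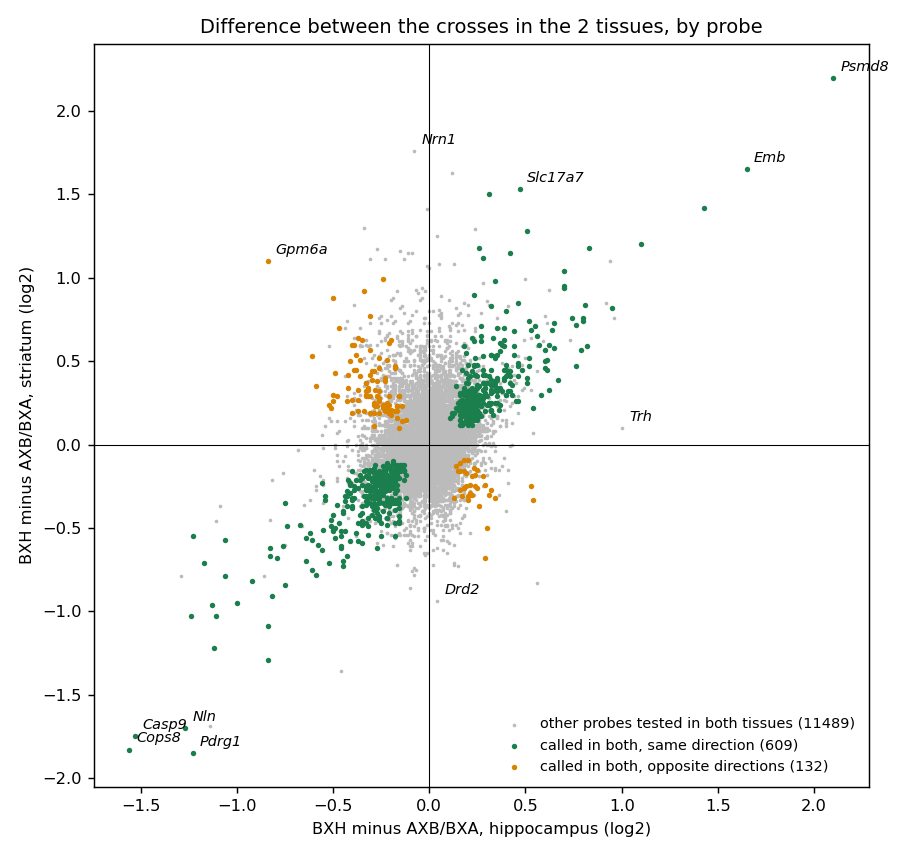
Each point is a probe tested in both tissues, placed by its BXH minus AXB/BXA difference (log2) in hippocampus (x axis) and striatum (y axis). The 609 probes called in the same direction include Cops8 at -1.56 and -1.83 and Psmd8 at 2.10 and 2.20, and the 132 called in opposite directions include Gpm6a.

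The 12 genes that were lowest in BXH over both tissues were Cops8, Casp9, Pdrg1, Nln, Rps3, Ccng2, Stard7, Sspn, Mpv17l, Chmp1a, Lrrc57 and Tmem106b. In 11 of them, all but Chmp1a, C3H lay at least 1 log2 unit away from B6 in the mean of both tissues while AJ lay within 0.5 of B6, and the BXH strains fell into a low and a high set. The widest gap between neighbouring BXH strains was 0.76 to 3.17 log2 units in these 11 genes, against 0.04 to 0.58 between neighbouring AXB/BXA strains, and 3 to 7 BXH strains lay below it. Cops8 encodes a subunit of the COP9 signalosome, which removes NEDD8 from cullin ubiquitin ligases. In hippocampus its lowest, median and highest BXH strains were at 7.42, 10.99 and 11.33, and the AXB/BXA strains at 10.95, 11.23 and 11.69. In striatum the BXH strains were at 7.45, 9.31 and 11.11 and the AXB/BXA strains at 10.94, 11.12 and 11.28. The 5 low BXH strains of each tissue lay at 7.42 to 8.06 and 7.45 to 7.73, beside C3H at 7.91 and 7.63, and below every AXB/BXA strain. The others lay at 10.99 to 11.33 and at 10.90 to 11.11, near B6 (11.03 in either tissue), and overlapped AXB/BXA. Over all strains Cops8 was 2.96-fold lower in BXH in hippocampus (-1.56 ± 0.32 SE, adjusted p = 0.00104) and 3.56-fold lower in striatum (-1.83 ± 0.32, adjusted p = 2.94e-05). In several leading genes the low set lay near the lowest intensities of the array. In BXH hippocampus it was at 7.42 to 7.56 for Casp9, 7.0 to 7.2 for Pdrg1 and 7.07 to 7.19 for Nln. How much of such a value is background was not tested, so the size of these differences is uncertain.

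Casp9, the initiator caspase of the mitochondrial route of apoptosis, was low in more BXH strains. Its BXH strains ran from 7.42 over a median of 7.53 to 10.05 in hippocampus, and its AXB/BXA strains from 9.60 over 9.94 to 10.11. In striatum the values were 7.44, 7.67 and 10.24 in BXH and 9.72, 10.12 and 10.37 in AXB/BXA. In either tissue 7 BXH strains lay below all AXB/BXA strains, next to C3H (7.71 and 7.65). The difference was -1.53 ± 0.22 in hippocampus (adjusted p = 1.46e-05) and -1.75 ± 0.21 in striatum (adjusted p = 2.82e-07). A further Casp9 probe moved the other way: it was higher in BXH by 0.44 ± 0.08 in hippocampus (adjusted p = 0.000127) and by 0.54 ± 0.07 in striatum (adjusted p = 9.96e-07), with 7 BXH strains above all AXB/BXA strains in each tissue. That probe was dim, with means of 7.63 in BXH and 7.19 in AXB/BXA hippocampus and of 7.75 and 7.21 in striatum. The probes thus ran in opposite directions, and the signal of the gene as a whole cannot be given 1 direction from them.

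Pdrg1, a gene named for its regulation by p53 and DNA damage, ran from 7.0 over 7.20 to 10 in BXH hippocampus and from 9.16 over 9.48 to 9.82 in AXB/BXA. In striatum its values were 7.08, 7.21 and 10.33 in BXH and 9.86, 10.21 and 10.72 in AXB/BXA. The same number of BXH strains, 6, lay below all AXB/BXA strains in each tissue. The rest were at the AXB/BXA level or, for 1 strain in hippocampus, above it. The difference was -1.23 ± 0.24 in hippocampus (adjusted p = 0.00053) and -1.85 ± 0.29 in striatum (adjusted p = 6.77e-06).

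Nln encodes neurolysin, a metallopeptidase that cleaves neurotensin. Its BXH strains were at 7.07, 7.19 and 10.12 (lowest, median, highest) and its AXB/BXA strains at 9.20, 9.59 and 9.96 in hippocampus. In striatum they were at 6.95, 7.19 and 9.89 and at 9.61, 9.87 and 10.06. Again 6 BXH strains lay below every AXB/BXA strain in either tissue (-1.27 ± 0.25, adjusted p = 0.000576 in hippocampus, and -1.70 ± 0.25, adjusted p = 2.63e-06 in striatum). A further Nln probe fell by 0.23 ± 0.07 in hippocampus (adjusted p = 0.0271) and by 0.36 ± 0.07 in striatum (adjusted p = 8.89e-05), and a dim one tested in hippocampus did not pass (0.08 ± 0.05, adjusted p = 0.346).

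**Figure D2:**
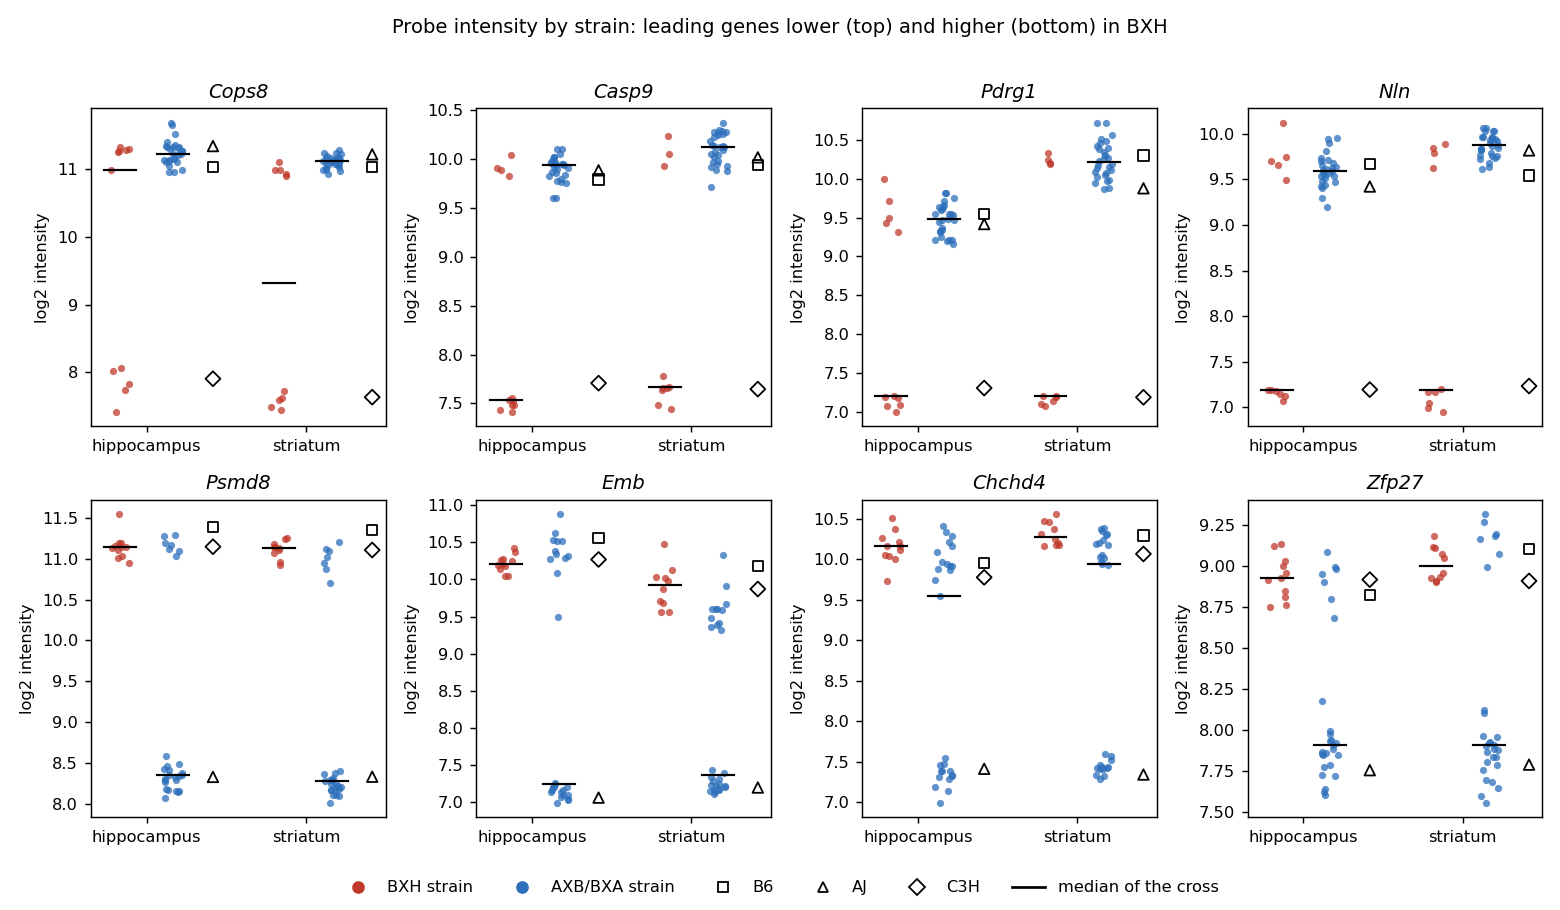
Log2 intensity (y axis) of each BXH strain (red) and AXB/BXA strain (blue) in hippocampus and striatum for 8 genes, with the median of the cross as a line and the single B6 (square), AJ (triangle) and C3H (diamond) arrays in black. Cops8, Casp9, Pdrg1 and Nln split the BXH strains, with C3H at the low level, and Psmd8, Emb, Chchd4 and Zfp27 split the AXB/BXA strains, with AJ at the low level.

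The other genes that were low with C3H were split in the same manner. Rps3, a protein of the small ribosomal subunit, differed by -1.12 ± 0.24 in hippocampus and -1.22 ± 0.24 in striatum (adjusted p = 0.00135 and 0.00016), with BXH strains from 10.21 to 13.29 and from 10 to 12.90. Another probe of Rps3 did not pass in either tissue (0.05 ± 0.13 and 0.24 ± 0.10, adjusted p = 0.832 and 0.0534). Ccng2, an unconventional cyclin linked to cell cycle arrest, differed by -1.24 ± 0.20 and -1.03 ± 0.22 (adjusted p = 7.72e-05 and 0.000408). Stard7, a carrier of phosphatidylcholine to mitochondria, differed by -1.11 ± 0.22 and -1.03 ± 0.25 (adjusted p = 0.000808 and 0.0014), and its other tested probe by -0.19 ± 0.07 and -0.01 ± 0.08 (adjusted p = 0.0652 and 0.953). Sspn, a member of the dystrophin glycoprotein complex, differed by -0.84 ± 0.21 and -1.29 ± 0.23 (adjusted p = 0.00633 and 3.7e-05), and its hippocampus call was lost against the AXB strains alone (adjusted p = 0.0714) and against the BXA strains alone (adjusted p = 0.0532). Mpv17l, a mitochondrial and peroxisomal membrane protein, differed by -1.13 ± 0.22 and -0.96 ± 0.19 (adjusted p = 0.000539 and 0.000175) for 1 of its 3 probes, while the other probes ranged from -0.08 to 0.14, of which the 0.14 in hippocampus passed (adjusted p = 0.0346). Lrrc57, a leucine-rich repeat protein, differed by -1.17 ± 0.27 and -0.71 ± 0.25 (adjusted p = 0.00323 and 0.0254). Its call in striatum was lost when BXH8, BXH10, BXH14 or BXH22 was left out (adjusted p up to 0.0935) and against the BXA strains alone (adjusted p = 0.173), and against the AXB strains alone Lrrc57 passed in neither tissue (adjusted p = 0.0563 and 0.0864). Tmem106b, a lysosomal membrane protein, differed by -1.06 ± 0.19 and -0.79 ± 0.20 (adjusted p = 0.00027 and 0.00205).

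Some of the BXH strains lay at or above the AXB/BXA level in each of these genes. For Lrrc57 in striatum, 4 BXH strains lay below and 4 above all AXB/BXA strains, with medians of 9.65 in BXH and 9.54 in AXB/BXA. For Stard7 in striatum, 5 BXH strains lay below and 3 above all AXB/BXA strains. A lower mean in BXH thus did not hold for the whole set. With a Wilcoxon rank-sum test the hippocampus calls of Cops8 (adjusted p = 0.151), Pdrg1 (0.144), Nln (0.277), Rps3 (0.277), Stard7 (0.0505), Sspn (0.144) and Lrrc57 (0.0873) were lost, as were the striatum calls of Rps3 (0.103), Stard7 (0.854) and Lrrc57 (0.739). Casp9, Ccng2, Mpv17l and Tmem106b remained called in both tissues.

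Among the 12 genes that were highest in BXH over both tissues, 6 showed the mirror picture: Psmd8, Emb, Chchd4, Mrpl10, Dnajc10 and Zfp27 were low in AJ, by at least 1 log2 unit below B6, and split the AXB/BXA strains. Across them 11 to 21 AXB/BXA strains lay below their widest gap of 0.40 to 2.44, and the widest gap within BXH was 0.05 to 0.35. Psmd8, a subunit of the regulatory particle of the proteasome, gave the largest mean difference of the probes called in both tissues in the same direction. In hippocampus its BXH strains were at 10.94, 11.14 and 11.55 (lowest, median, highest) and its AXB/BXA strains at 8.07, 8.36 and 11.29. In striatum they were at 10.92, 11.14 and 11.26 and at 8.01, 8.28 and 11.21. A low set of 20 of 27 AXB/BXA strains reached no higher than 8.59 in hippocampus and 21 of 28 no higher than 8.41 in striatum, beside AJ at 8.33, whereas the remaining 7 strains lay at 11.03 to 11.29 and at 10.71 to 11.21. The difference was 4.27-fold in hippocampus (2.10 ± 0.37, adjusted p = 0.000166) and 4.58-fold in striatum (2.20 ± 0.37, adjusted p = 2.38e-05).

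Emb, a partner of monocarboxylate transporters and a relative of basigin, was at 10.05, 10.20 and 10.42 in BXH and at 6.99, 7.25 and 10.88 in AXB/BXA hippocampus. In striatum the values were 9.56, 9.92 and 10.47 against 7.11, 7.37 and 10.33. The AXB/BXA strains split into 15 low and 12 high strains in hippocampus and 16 low and 12 high ones in striatum, and no BXH strain was low (1.65 ± 0.47, adjusted p = 0.016, and 1.65 ± 0.37, adjusted p = 0.000699). By the Wilcoxon test the hippocampus call of Emb was lost (adjusted p = 0.364). Chchd4, the oxidoreductase of the import route into the mitochondrial intermembrane space, was at 9.73, 10.17 and 10.50 in BXH and at 6.99, 9.55 and 10.41 in AXB/BXA hippocampus. In striatum it was at 10.16, 10.28 and 10.56 against 7.29, 9.94 and 10.39. Here 13 AXB/BXA strains were low in each tissue (1.43 ± 0.40, adjusted p = 0.0137, and 1.42 ± 0.42, adjusted p = 0.00855), and against the AXB strains alone the difference was 1.11 and 1.04 and did not pass (adjusted p = 0.0679 and 0.052).

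Mrpl10, a protein of the large mitochondrial ribosomal subunit, differed by 1.10 ± 0.36 in hippocampus and 1.2 ± 0.40 in striatum (adjusted p = 0.0373 and 0.0188), with 11 low AXB/BXA strains in each. Its hippocampus call was lost without BXH4, BXH7, BXH9, BXH10, BXH14 or BXH19 (adjusted p up to 0.0585), and against the AXB strains alone Mrpl10 passed in neither tissue (0.92 and 0.98, adjusted p = 0.0977 and 0.0532). Another of its probes was at -0.16 ± 0.08 and -0.10 ± 0.07 (adjusted p = 0.233 and 0.318). Dnajc10, a disulfide reductase of the endoplasmic reticulum, differed by 0.95 ± 0.19 and 0.82 ± 0.20 (adjusted p = 0.000737 and 0.00128). A dim further probe of Dnajc10, tested in hippocampus, was lower in BXH (-0.23 ± 0.06, adjusted p = 0.00944). Zfp27, a zinc finger protein, differed by 0.81 ± 0.14 and 0.84 ± 0.18 (adjusted p = 0.000212 and 0.000532) and its other probe by 0.05 ± 0.04 and -0.02 ± 0.05 (adjusted p = 0.478 and 0.79). Chmp1a, a member of the ESCRT-III membrane complex, ran against these genes, being high in AJ (8.89 and 8.70) and at 7.28 and 7.09 in B6. All BXH strains of Chmp1a lay at 7.06 to 7.44, and 17 AXB/BXA strains in hippocampus and 18 in striatum lay at 8.43 or above (-1.0 ± 0.23, adjusted p = 0.0035, and -0.95 ± 0.22, adjusted p = 0.000775).

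The files hold no probe sequences, so whether a probe met a base change in the C3H or A transcript was not tested, and a change in hybridization and a change in transcript level cannot be told apart. The start regions of Psmd8 and Cops8, the genes with the largest difference in either direction, are shown because B6, whose sequence they give, is a parent of both crosses. They are RefSeq windows of GRCm38.p6, from 250 bases before to 50 after the start, with matches to the motifs searched in capitals. The Psmd8 window is chr7:29180624-29180923 on the minus strand and the Cops8 window chr1:90603175-90603474 on the plus strand.
Psmd8: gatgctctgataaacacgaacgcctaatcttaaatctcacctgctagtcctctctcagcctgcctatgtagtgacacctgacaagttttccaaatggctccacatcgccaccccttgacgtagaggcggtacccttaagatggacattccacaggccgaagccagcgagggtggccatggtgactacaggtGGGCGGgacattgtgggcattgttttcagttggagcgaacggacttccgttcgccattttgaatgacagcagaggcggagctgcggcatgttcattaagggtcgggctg
Cops8: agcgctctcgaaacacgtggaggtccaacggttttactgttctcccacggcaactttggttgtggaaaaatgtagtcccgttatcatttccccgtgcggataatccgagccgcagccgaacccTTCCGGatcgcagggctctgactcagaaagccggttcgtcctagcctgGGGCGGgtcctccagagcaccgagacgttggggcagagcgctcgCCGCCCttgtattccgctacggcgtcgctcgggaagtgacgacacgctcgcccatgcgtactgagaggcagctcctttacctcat
On both strands, TATAAA and CCAAT were found in neither window, CCGGAA was found in Cops8 only and GGGCGG 1 time in Psmd8 and 2 times in Cops8. Over all 32851 windows of this length TATAAA occurred in 13.6%, CCAAT in 37.4%, CCGGAA in 14.9% and GGGCGG in 35.7%. Whether the C3H or A allele differs within these windows was not tested, and the windows held 15 CpG dinucleotides in Psmd8 and 30 in Cops8.

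The split of the strains recurred in the other tissue. For 19 of the leading genes that set C3H or AJ apart from the other parents, each strain with both tissues was placed nearer B6 or nearer the other parent of its cross. In 16 of the 19 genes every strain lay on the same side in hippocampus and striatum. For Casp9, 7 BXH strains lay on the C3H side and 3 on the B6 side in both tissues, and for Psmd8 20 AXB/BXA strains lay on the AJ side and 7 on the B6 side. The exceptions were Emb and Dnajc10, in which only AXB15 and AXB19 changed sides, the strains whose arrays matched each other across the tissues, and Hapln4, in which BXH20 did. These are descriptions of the same strains measured in another tissue. The genes were chosen for calls in both tissues in the same direction, and their parent pattern came from the mean of both. Agreement between the tissues was thus partly built in by that choice.

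Some neighbouring genes shared the split. Of the 86 genes called in both tissues in the same direction with a mean difference of at least 0.5, 33 lay within 10 genes of another one in the order of the tested genes along a chromosome, in 14 groups. The share to be met through gene order alone was not computed. Some groups ran in 1 direction, and others held opposite directions, among them Copz2 with Mrpl10, Zcchc3 with Pdrg1, Tmem126b with Prcp and Zfp930 with Hapln4. Sides were compared only for pairs that set the same parent apart. Psmd8 and Zfp27, on chromosome 7, placed all 27 AXB/BXA strains of hippocampus and all 28 of striatum on the same side, with 20 and 21 strains on the AJ side. Nln and Trappc13, a subunit of a vesicle tethering complex, both on chromosome 13, placed all 11 BXH strains of hippocampus and all 10 of striatum alike, with 6 on the C3H side. Zfp930, a zinc finger gene, and Hapln4, on chromosome 8, agreed for 11 of 11 BXH strains in hippocampus and 9 of 10 in striatum. The agreement was lower for 4833420G17Rik and Zfp131, at 8 of 11 BXH strains in hippocampus, where 7 and 10 strains lay on the C3H side, and at 10 of 10 in striatum. In that group of chromosome 13, Emb was higher in BXH with Paip1 (0.83 and 1.18), while 4833420G17Rik (-0.83 and -0.67) and Zfp131 (-0.55 and -0.51) were lower. The named neighbours thus did not all move in 1 direction, and Emb was low with AJ while 4833420G17Rik and Zfp131 were low with C3H.

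A further set of leading genes was high in BXH with no gap of that kind in AXB/BXA. Paip1, which binds the poly(A) tail protein and stimulates translation, was at 8.03, 9.77 and 10.15 in BXH and at 8.26, 8.62 and 8.83 in AXB/BXA hippocampus. In striatum it was at 8.34, 9.85 and 10.09 against 7.72, 8.29 and 8.67. A high set of 8 BXH strains in hippocampus and 7 in striatum lay above every AXB/BXA strain (0.83 ± 0.15, adjusted p = 0.000234, and 1.18 ± 0.14, adjusted p = 2.24e-07, the former lost by the Wilcoxon test with adjusted p = 0.104), and C3H was at 9.19 and 9.76 against 8.84 and 8.65 in B6. Uap1l1, a relative of an enzyme that makes UDP-N-acetylglucosamine, was at 9.43, 9.54 and 9.69 in BXH and at 8.23, 8.88 and 9.51 in AXB/BXA hippocampus. In striatum it was at 9.12, 9.40 and 9.57 against 7.75, 8.34 and 9.26. The narrow BXH range lay at the top of the AXB/BXA range, with 7 and 8 BXH strains above all AXB/BXA strains (0.70 ± 0.08, adjusted p = 9.82e-07, and 0.94 ± 0.12, adjusted p = 6.91e-07). Hapln4, a link protein of perineuronal nets, was at 9.86, 10.64 and 11.68 in BXH and at 9.46, 10.15 and 10.64 in AXB/BXA hippocampus, with C3H at 11.93 (0.70 ± 0.14, adjusted p = 0.000961). It differed by 1.04 ± 0.17 in striatum (adjusted p = 1.11e-05).

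Of the leading genes higher in BXH, 3 are neuronal genes of cortex and hippocampus, and their difference was larger in striatum by the test of the difference between tissues (-1.03 for Slc17a7, -1.16 for Vxn and -0.72 for Cckbr, hippocampus minus striatum). Against the BXA strains alone the value of Slc17a7 did not pass (-0.66, adjusted p = 0.121). That of Cckbr did not pass against the AXB strains alone (-0.63, adjusted p = 0.0801), and Vxn passed against either. Slc17a7, the vesicular glutamate transporter of cortical and hippocampal excitatory neurons, was at 10.41, 11.47 and 12.48 in BXH striatum and at 8.15, 9.84 and 11.81 in AXB/BXA striatum. In hippocampus it was at 11.97, 12.31 and 13.35 against 11.38, 11.99 and 13.19. The groups overlapped in both tissues, with a difference of 1.53 ± 0.31 in striatum (adjusted p = 0.000254) and 0.47 ± 0.15 in hippocampus (adjusted p = 0.0336), of which the latter was lost without BXH4, BXH7, BXH9 or BXH19 (adjusted p up to 0.0991) and against the AXB strains alone (0.32, adjusted p = 0.297). Vxn (vexin, a promoter of neuronal differentiation in Xenopus) differed by 1.5 ± 0.21 in striatum (adjusted p = 1.48e-06) and 0.31 ± 0.08 in hippocampus (adjusted p = 0.00632), and its other probe by 1.41 ± 0.24 (adjusted p = 2.17e-05) and -0.01 ± 0.06 (adjusted p = 0.914). Cckbr, the cholecystokinin receptor of the brain, differed by 1.28 ± 0.17 in striatum (adjusted p = 5.36e-07) and 0.51 ± 0.12 in hippocampus (adjusted p = 0.00299). Without the 5 striatum arrays whose neuronal markers lay outside the AXB/BXA range (BXH8, BXH9, BXH19, BXH20 and BXH22), the difference between tissues passed for none of the 3 (-0.28 for Slc17a7, -0.68 for Vxn and -0.14 for Cckbr, adjusted p = 0.706, 0.0791 and 0.747). With the marker covariate it was 0.62, -0.20 and 0.07 (adjusted p = 0.0825, 0.486 and 0.857). Slc17a7 is itself among the cortical markers that picked these arrays and make up the covariate, so a shift of its difference was built in. Only 5 BXH striatum arrays remained without the 5, so the markers and the smaller number of strains cannot be told apart.

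The marker lists of neurons moved with the cross in striatum. Of the cortical neuron markers, 10 genes of which 7 had a probe, 6 were tested in striatum, and 5 were higher and 0 lower in BXH with a median difference of 0.63. Of the 14 medium spiny neuron markers, 11 were tested, and 0 were higher and 8 lower with a median of -0.48, against medians of -0.01 over all 8882 genes of striatum (1560 higher, 1519 lower). Tbr1 and Fezf2, transcription factors of deep-layer cortical neurons, rose by 1.08 ± 0.21 and 0.70 ± 0.11 (adjusted p = 0.000151 and 1.42e-05). The dopamine receptor genes fell: Drd2 by 0.94 ± 0.14 (adjusted p = 3.48e-06) and Drd1 by 0.71 ± 0.12 (adjusted p = 1.51e-05). Foxp1, a transcription factor of medium spiny neurons, fell by 0.75 ± 0.10 (adjusted p = 5.14e-07). The summed intensity of the cortical markers was 2730 to 8864 in BXH and 1305 to 5180 in AXB/BXA striatum, with 5 BXH strains above every AXB/BXA strain, and that of the medium spiny neuron markers 26834 to 73271 and 56731 to 87536, with 4 BXH strains below every AXB/BXA strain. Lamp5, Neurod1 and Emx1 among the cortical markers, and Adora2a and Penk among the spiny neuron markers, were not among the probes tested there. In hippocampus 1 of 7 cortical markers was higher (Slc17a7) and 0 lower, and 2 of 9 spiny neuron markers were higher (Ppp1r1b and Bcl11b) and 0 lower. In tissue RNA, fewer cells of a type and less RNA per cell cannot be told apart.

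**Figure D3:**
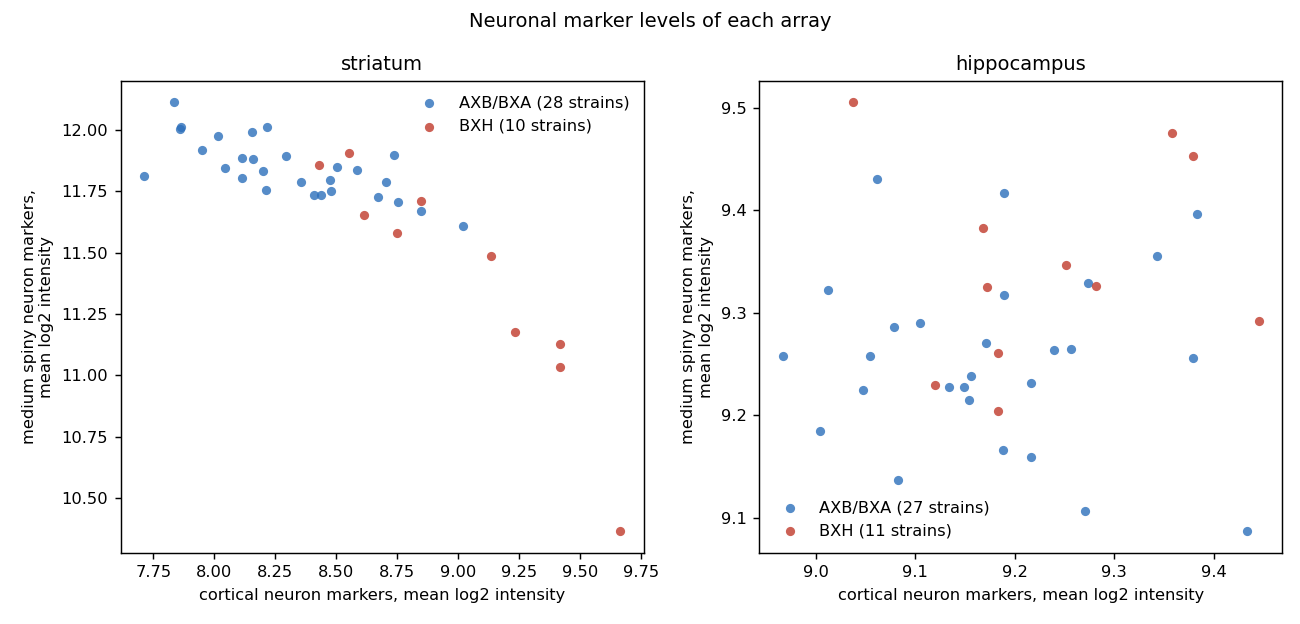
Mean log2 intensity of the cortical neuron markers (x axis) and of the striatal medium spiny neuron markers (y axis) of each array, in striatum (left) and hippocampus (right), with BXH strains in red and AXB/BXA strains in blue. In striatum the BXH strains reach to high cortical and low spiny neuron levels (medians 8.99 and 11.53, against 8.26 and 11.83 in AXB/BXA), and in hippocampus the crosses overlap.

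The striatum counts depended on how these markers were handled. The mean of the cortical markers minus that of the spiny neuron markers was -3.43 to -0.70 in BXH striatum and -4.28 to -2.59 in AXB/BXA striatum, and BXH8, BXH9, BXH19, BXH20 and BXH22 lay above every AXB/BXA strain. Without these 5 strains the striatum counts fell to 995 probes higher and 737 lower in BXH, and with the marker level as a covariate they were 1675 and 1255. Leaving out the 5 strains left only 5 BXH strains, and no other set of 5 was left out for comparison. The markers and the smaller number of strains thus cannot be told apart in that fit. With the covariate, 49.7% of the 4475 striatum calls were called the same way, against 96.4% of the 1657 hippocampus calls. Psmd8 (2.30, adjusted p = 0.00158), Casp9 (-2.13, adjusted p = 1.12e-05), Nln (-1.16, adjusted p = 0.00724), Pdrg1 (-1.27, adjusted p = 0.0113) and Cops8 (-1.17, adjusted p = 0.0306) remained called in striatum. Slc17a7, which is itself part of the marker level, was at 0.01 (adjusted p = 0.972). The striatum calls of Hapln4 (0.34, adjusted p = 0.107), Ccng2 (-0.38, adjusted p = 0.289), Lrrc57 (-0.51, adjusted p = 0.283), Tmem106b (-0.60, adjusted p = 0.0975) and Dnajc10 (0.65, adjusted p = 0.066) were lost. Without the 5 strains the striatum calls of Chchd4 (1.48, adjusted p = 0.0869), Mrpl10 (1.29, adjusted p = 0.118), Ccng2 (-0.49, adjusted p = 0.118) and Slc17a7 (0.94, adjusted p = 0.117) were lost. Why the markers differed between the crosses was not tested.

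The difference between the crosses was compared between the tissues within each strain, over 10 BXH and 27 AXB/BXA strains. Of 12230 probes, the BXH minus AXB/BXA difference was larger (more positive) in hippocampus for 1184 (9.68%) and in striatum for 1779 (14.5%). The genes with the largest such difference on the striatum side were Gpm6a, Nrn1 and Sh3gl2. Gpm6a, a neuronal membrane glycoprotein, was at 9.80, 10.55 and 11.13 in BXH and at 7.59, 9.68 and 10.67 in AXB/BXA striatum. In hippocampus it was at 8.54, 10.76 and 11.07 against 8.14, 11.27 and 11.63. BXH was thus the higher group in striatum (1.10 ± 0.27, adjusted p = 0.00154) and the lower one in hippocampus (-0.84 ± 0.25, adjusted p = 0.0201, lost without BXH4 or BXH7 with adjusted p up to 0.0668), a difference of -2.03 ± 0.37 (adjusted p = 0.000114). The hippocampus value did not pass against the AXB strains alone (-0.72, adjusted p = 0.181), nor the striatum value without the 5 striatum arrays (1.04, adjusted p = 0.0544). Of its other probes none passed in either tissue (-0.14 to 0.12). Nrn1, the neurotrophic factor neuritin, was at 10.14, 11.45 and 12.68 in BXH and at 8.38, 9.59 and 11 in AXB/BXA striatum. It differed by 1.76 ± 0.28 there (adjusted p = 7.87e-06), at -0.08 ± 0.07 in hippocampus (adjusted p = 0.511) and by -1.85 ± 0.29 between the tissues (adjusted p = 1.85e-05). With the marker covariate the Nrn1 difference between tissues was -0.50 (adjusted p = 0.157). Sh3gl2 (endophilin A1 of synaptic vesicle recycling) was at 9.55, 10.08 and 10.83 against 7.67, 8.95 and 9.67 in striatum, where 9 of 10 BXH strains lay above all AXB/BXA strains (1.30 ± 0.17, adjusted p = 5.14e-07). Its other probes were also higher in striatum (0.71 ± 0.09 and 1.11 ± 0.14, adjusted p = 3.84e-07 and 2.82e-07) and passed in neither direction in hippocampus. Its hippocampus value was -0.34 ± 0.16 (adjusted p = 0.176), and the tissues differed by -1.68 ± 0.23 (adjusted p = 3.69e-06).

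On the hippocampus side the leading genes were Trh, Drd2 and Dlgap3. Trh, the precursor of thyrotropin-releasing hormone, was at 7.30, 8.77 and 10.18 in BXH and at 7.19, 7.42 and 9.44 in AXB/BXA hippocampus. Only 3 BXH strains exceeded all AXB/BXA strains, and the difference was 1.0 ± 0.27 (adjusted p = 0.0105) against 0.10 ± 0.08 in striatum (adjusted p = 0.378). The tissues differed by 1.03 ± 0.30 for Trh (adjusted p = 0.0101). Against the AXB strains alone the hippocampus difference of Trh was 0.79 (adjusted p = 0.169) and its difference between tissues 0.88 (adjusted p = 0.125). Drd2 ran from 8.77 over 10.22 to 11.12 in BXH and from 10.86 over 11.19 to 11.78 in AXB/BXA striatum, while in hippocampus, where it is near the lowest intensities of the array, the groups were at 7.81 and 7.72 (medians). Dlgap3, a scaffold of the postsynaptic density, was lower in BXH striatum (-0.68 ± 0.11, adjusted p = 2.23e-05) and higher in BXH hippocampus (0.29 ± 0.10, adjusted p = 0.0403), the latter lost in 12 of 39 fits that left out 1 strain (adjusted p up to 0.129). The tissues differed by 0.99 ± 0.15 for Dlgap3 (adjusted p = 1.1e-05).

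The counts of the remaining gene lists are read against all genes tested, of which 525 of 8933 (5.88%) were higher and 665 (7.44%) lower in BXH hippocampus, and 1560 of 8882 (17.6%) higher and 1519 (17.1%) lower in BXH striatum. Among 28 tested proteasome subunits, 2 were higher and 3 lower in hippocampus and 9 higher and 2 lower in striatum, with medians of 0.00 and 0.05. Psmb1, a catalytic-core subunit, was lower in both tissues (-0.54 ± 0.10, adjusted p = 0.000261, and -0.31 ± 0.06, adjusted p = 0.000283), and Psmc4, an ATPase of the regulatory particle, was higher in both (0.25 ± 0.07, adjusted p = 0.0106, and 0.34 ± 0.07, adjusted p = 0.000347). Of 20 tested genes of synaptic vesicle release, 2 were higher and 1 lower in hippocampus, and 9 higher and 1 lower in striatum with a median of 0.20. Stx1a, a SNARE of the presynaptic membrane, rose in both tissues (0.26 ± 0.06, adjusted p = 0.00404, and 1.18 ± 0.14, adjusted p = 2.43e-07), as did Vamp1, a SNARE of the vesicle (0.20 ± 0.06, adjusted p = 0.0253, and 0.40 ± 0.09, adjusted p = 0.00058). The hippocampus call of Vamp1 was lost without BXH8 or BXH22 (adjusted p up to 0.0624). Whether the list as a whole moved with the neuronal markers in striatum was not tested. With the marker covariate the striatum difference of Vamp1 was 0.10 (adjusted p = 0.452) and its call was lost. Stx1a remained called (0.50, adjusted p = 0.00119). Against the AXB strains alone the hippocampus calls of Psmc4 (adjusted p = 0.0796) and Vamp1 (adjusted p = 0.109) were lost.

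Immune and glial lists were mixed in direction. Of 13 tested genes of MHC class I and peptide loading, 1 was higher and 1 lower in hippocampus and 3 higher and 1 lower in striatum. The nonclassical class I gene H2-T23 was higher in BXH (0.64 ± 0.16, adjusted p = 0.00751, and 0.69 ± 0.20, adjusted p = 0.00631), with AJ at 7.39 and 7.21 below B6 at 8.6 and 8.79, and its other probe gave 0.53 ± 0.19 and 0.64 ± 0.17 (adjusted p = 0.0526 and 0.00348). H2-T10 was lower (-0.37 ± 0.12, adjusted p = 0.0429, and -0.58 ± 0.18, adjusted p = 0.0109), with AJ above B6. In striatum both calls were lost with the marker covariate (0.19 for H2-T23 and -0.22 for H2-T10, adjusted p = 0.598 and 0.512) and without the 5 striatum arrays (0.54 and -0.60, adjusted p = 0.184 and 0.101). Since class I genes are near-identical copies, their probes may share signal, and the H2-T10 call in hippocampus was lost in 23 of the 39 fits that left out 1 strain (adjusted p up to 0.0714). Of 13 tested microglia markers, 2 were higher and 2 lower in each tissue: C1qa, a subunit of complement C1q (0.22 ± 0.06, adjusted p = 0.0158, and 0.20 ± 0.06, adjusted p = 0.00922), and Fcrls, a microglial Fc receptor-like gene (0.32 ± 0.08, adjusted p = 0.00936, and 0.33 ± 0.09, adjusted p = 0.00573), were higher, and Tmem119, a microglial membrane protein, was lower (-0.21 ± 0.06, adjusted p = 0.0201, and -0.37 ± 0.08, adjusted p = 0.000385), with the hippocampus call lost without BXH2 (adjusted p = 0.0528). In striatum Fcrls was lost with the marker covariate (0.24, adjusted p = 0.151) and without the 5 arrays (0.11, adjusted p = 0.552), and C1qa without the 5 arrays (0.17, adjusted p = 0.144). Against the AXB strains alone the hippocampus calls of Fcrls (adjusted p = 0.0818) and C1qa (adjusted p = 0.0517) were lost. The C1qa call was also lost against the BXA strains alone (adjusted p = 0.0597). Of 12 tested astrocyte markers 0 passed in hippocampus, and 2 were higher and 1 lower in striatum. Of 10 tested endothelial markers 1 was higher and 1 lower in hippocampus and 4 higher and 4 lower in striatum. Egfl7, an endothelial secreted factor, rose in both (0.53 ± 0.07, adjusted p = 6.18e-06, and 0.69 ± 0.10, adjusted p = 2.75e-06), although its other probes ranged from -0.13 to 0.18, and Slco1c1, a thyroid hormone transporter, was lower (-0.28 ± 0.09, adjusted p = 0.0419, and -0.26 ± 0.08, adjusted p = 0.0137). The hippocampus call of Slco1c1 was lost in 15 of the 39 fits without 1 strain (adjusted p up to 0.101). Its striatum call was lost against the AXB strains alone (-0.18, adjusted p = 0.128). Among 11 tested oligodendrocyte markers 0 were higher and 1 lower in hippocampus and 1 higher and 3 lower in striatum. Mobp, a myelin protein, fell in both tissues on 1 probe (-0.52 ± 0.09, adjusted p = 0.000124, and -0.71 ± 0.12, adjusted p = 1.24e-05), and its other probes differed between the tissues (-0.52 to 0.16). The striatum call of Mobp was lost with the covariate (-0.33, adjusted p = 0.0561) and without the 5 arrays (-0.29, adjusted p = 0.0563).

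**Figure D4:**
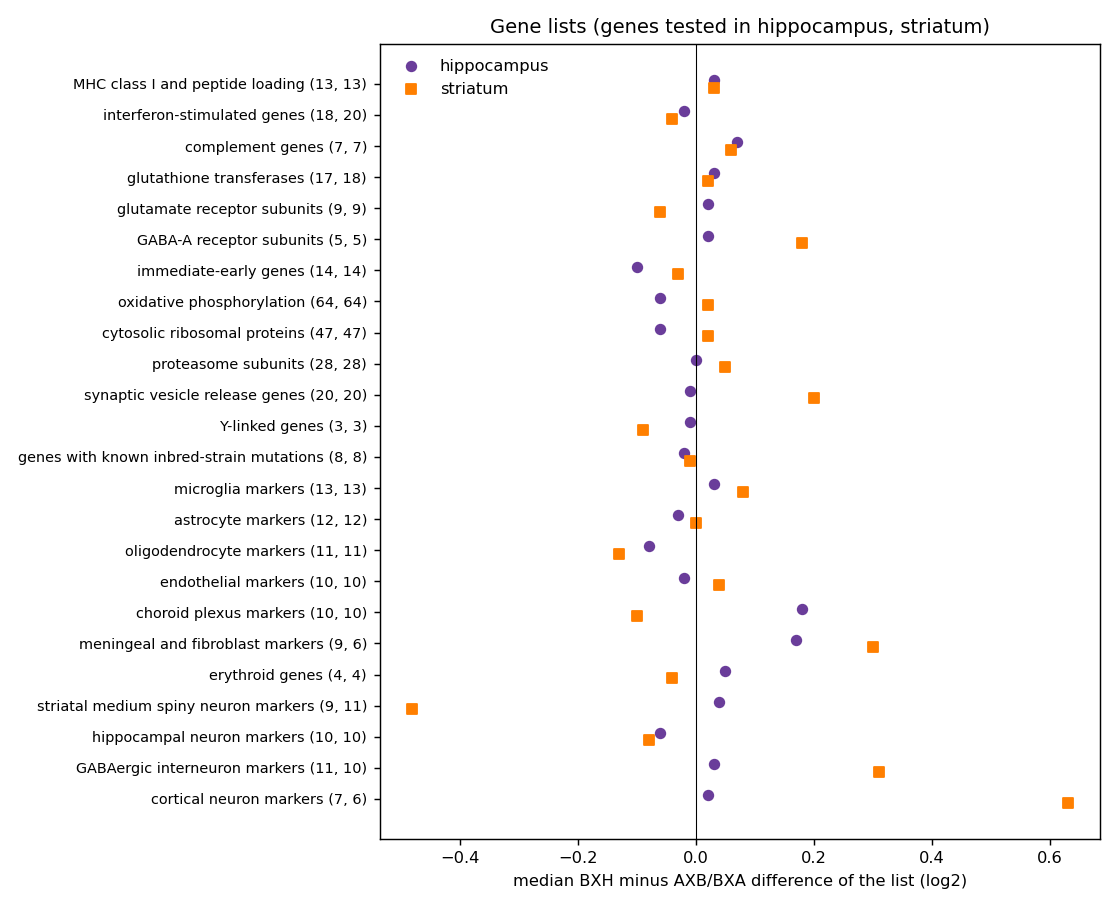
Median BXH minus AXB/BXA difference (log2, x axis) of the tested genes of each list in hippocampus (circles) and striatum (squares), with the number of genes tested in each tissue after the list's name. The lists of cortical neuron markers (0.63) and medium spiny neuron markers (-0.48) lie at the ends in striatum, and both are near 0 in hippocampus (0.02 and 0.04).

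The counts of the other lists were mixed. Of 64 genes of oxidative phosphorylation 0 were higher and 5 lower in hippocampus, and 5 higher and 3 lower in striatum. Of 47 cytosolic ribosomal proteins 1 was higher (Rpl30) and 3 lower in hippocampus, and 7 higher and 1 lower (Rps3) in striatum. Rpl30 rose by 0.25 ± 0.06 and 0.26 ± 0.05 (adjusted p = 0.00845 and 0.00028). Of 9 glutamate receptor subunits 0 were higher and 1 lower in hippocampus, and 2 higher and 4 lower in striatum, and Gria2, a subunit of AMPA receptors, fell in both (-0.31 ± 0.08, adjusted p = 0.00602, and -0.25 ± 0.06, adjusted p = 0.000858) on 1 of its probes, the other being at -0.09 ± 0.07 and 0.10 ± 0.10. Among 14 immediate-early genes 1 was higher in hippocampus, and 2 were higher and 3 lower in striatum. Jun, a subunit of AP-1, was higher in both (0.28 ± 0.09, adjusted p = 0.0303, and 0.33 ± 0.07, adjusted p = 0.000197), with the hippocampus call lost without BXH4, BXH7 or BXH9 (adjusted p up to 0.0698) and the striatum call lost with the marker covariate (0.14, adjusted p = 0.201) and without the 5 striatum arrays (0.20, adjusted p = 0.0929). The hippocampus call of Jun was also lost against the AXB or BXA strains alone (adjusted p = 0.0566 and 0.06). Of 7 tested complement genes 1 was higher and 0 lower in hippocampus, and 1 higher and 1 lower in striatum. Of the glutathione transferases 0 of 17 were higher and 1 lower in hippocampus, and 5 of 18 higher and 2 lower in striatum. Of 5 GABA-A receptor subunits 0 were higher and 1 lower in hippocampus, and 2 higher and 1 lower in striatum. Of 10 hippocampal neuron markers 1 was higher and 0 lower in hippocampus, and 3 higher and 3 lower in striatum. Of 11 interneuron markers 0 were higher and 1 lower in hippocampus, and of 10 in striatum 6 were higher and 1 lower with a median of 0.31. Of 9 meningeal and fibroblast markers 1 was higher and 0 lower in hippocampus, and of 6 in striatum 2 were higher and 0 lower. Of 8 genes with known mutations among inbred strains 0 passed in hippocampus and 1 was lower in striatum, and of 3 Y-linked genes 0 passed in either tissue. Of the choroid plexus markers and the erythroid genes 0 of 10 and 0 of 4 passed in either tissue. Of 18 tested interferon-stimulated genes 1 was higher and 0 lower in hippocampus, and of 20 in striatum 2 were higher and 2 lower.

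The parent arrays, which entered no fit, were set beside the crosses. Over all probes tested, the C3H minus AJ difference had the sign of the BXH minus AXB/BXA difference for 66.6% in hippocampus and 56.3% in striatum. For the 94 probes called in both tissues in the same direction with a mean difference of at least 0.5, the share was 97.9% in hippocampus and 98.9% in striatum. For probes called in 1 tissue only it was 92.3% in hippocampus (804 of 871) and 58.1% in striatum (2051 of 3532). The 132 probes called in opposite directions followed the parents in 96.2% of cases in hippocampus and in 34.8% in striatum. Of the 94 probes, 26 of the 45 lower ones set C3H apart from B6 and AJ and 2 set AJ apart, while 14 of the 49 higher ones set AJ apart and 2 set C3H apart.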

How the data were processed

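The crosses, the gene lists and the genes compared were chosen with earlier results of these data known. The authors extracted total RNA, hybridized it to the arrays and state that they normalized the signal by the rank invariant method of BeadStudio (no version given in the sources used here). The deposited series table holds 1 intensity per probe and array on a linear scale, and the values are far from 0: 0 values were under 1, and in hippocampus 0.0922% were under 100. Where background remains in the intensity, a difference of log2 intensities understates the change of dim genes. A further deposited table per tissue, labelled as not normalized, gives, per array and probe, the signal intensity of each bead type beside its detection p-value. Its signal equals the series table for 100% of values in hippocampus and 0.0839% in striatum, so it is not known whether the hippocampus values were normalized. Tissues were therefore tested against each other only through the cross. Columns of 165 other samples in the tables were not used.

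Intensities were set to at least 1 and log2 transformed. Probes were kept when detected (detection p under 0.01) on at least 4 arrays of the comparison. The crosses were compared with limma 3.58.1 (lmFit and eBayes, R 4.3.3) per tissue, two-sided, with Benjamini-Hochberg adjustment over all tested probes and a call at an adjusted p under 0.05. Between tissues the hippocampus minus striatum difference of each strain was compared in the same way. Adjusted p-values are from limma unless the Wilcoxon test is named. The script was tested on simulated data. Tables were made in Python with pandas. Of the probes, 23978 had 1 gene symbol and 1719 none in the platform annotation, and 23962 symbols matched RefSeq (GRCm38.p6), which was used for names, chromosomes, gene order and start regions. For the lists each gene counted once, through its brightest tested probe of that tissue. Named were the 12 genes highest and the 12 lowest in BXH over both tissues, the 3 per direction with the largest difference between tissues, and every list member called in both tissues the same way, with further probes of these genes and, for the marker lists, single members. Array chips and scan dates are not given in the sources used here, so a batch could not be examined. Alternatives were a floor of 16, quantile normalization, normexp with an offset of 16, no filter, detection on 50% of arrays, AXB19b kept, AXB19, AXB19a and AXB19b averaged, AXB or BXA strains alone, a Wilcoxon test, limma with trend and robust options, BXD strains in the fit and each strain left out in turn. Left-out near-alike strains, the marker covariate and the left-out striatum arrays were added after seeing the data. The near-alike strains left out were AXB15, AXB19, AXB19a, AXB19b and BXA8, and no BXH strain was among them. Precision is limited by the number of arrays.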

Additional observations from a re-analysis of the deposited data

Results flagged for a closer look

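Among the 45 named probes, 1 had a BXH strain in striatum that stood apart from the other 9: Drd2 in BXH22, at 8.77. Chance alone flags about 1 in 20 groups of this size. BXH22 also had the highest cortical minus spiny neuron marker level, -0.70.

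For 17 of the 45 named probes the BXH minus AXB/BXA difference was not the same in the tissues by the test of the difference itself. Over all 12230 probes 9.68% were called on the hippocampus side and 14.5% on the striatum side. Gpm6a, Nrn1, Sh3gl2, Trh, Drd2 and Dlgap3 were named because they led this same test, so their calls were fixed by that choice. The hippocampus minus striatum difference was -2.03 for Gpm6a, -1.85 for Nrn1 and -1.68 for Sh3gl2. It was -1.16 for Vxn, -1.03 for Slc17a7, -0.89 for Stx1a and -0.72 for Cckbr, all with the larger value in striatum. The Slc17a7 difference was lost without BXH22 (adjusted p = 0.051 in limma) and against the BXA strains alone. The Cckbr difference was lost against the AXB strains alone. It was -0.59 for Lrrc57, -0.43 for Paip1 and -0.22 for Psmb1, whose call was lost without BXH4, BXH6, BXH7 or BXH9. On the other side it was 1.03 for Trh, 0.99 for Drd2 and 0.99 for Dlgap3. It was 0.46 for Pdrg1, 0.36 for Sspn and 0.32 for Nln, which were lower in BXH in both tissues and more so in striatum. It was 0.20 for Tmem119, lost in 13 of 39 fits that left out 1 strain.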

How the results depend on the processing

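No paired analysis was possible because a strain of 1 cross has no counterpart in the other and the strains carry no shared replicate number. Floor 16, quantile normalization, normexp, detection on 50% of arrays, averaged AXB19 arrays, the Wilcoxon test, limma with trend and robust options, BXD strains in the fit and leaving out the near-alike strains kept every count within 1.5 times. So did leaving out each of 39 strains, with 533 to 870 probes higher and 706 to 1259 lower in hippocampus and 2162 to 2480 and 1746 to 2142 in striatum. With AXB19b kept, hippocampus had 145 probes higher and 224 lower, both tissues 78 and 97, and the tissues differed for 507 on the hippocampus and 802 on the striatum side, and 24 of the 103 named calls were lost. Against AXB strains only the counts were 355 and 481 in hippocampus, 184 and 181 in both, and 662 and 1022 between tissues. Against BXA strains only, 193 were lower in both. With no filter on dim probes 6561 were lower in striatum, with a median difference of -0.067 over all probes, and 2985 were on the hippocampus side. With the marker covariate 1255 were lower in striatum, 197 and 190 called in both, and 618 and 1168 between tissues. Without the 5 striatum arrays the striatum counts were 995 and 737, both tissues 171 and 169, and between tissues 442 and 867. With the covariate, which holds Slc17a7, the differences between tissues turned to 0.62 for Slc17a7 (adjusted p = 0.0825) and 0.07 for Cckbr (adjusted p = 0.857). The Wilcoxon test lost 16 named calls. No other of the 103 named values turned its direction under these 15 alternatives. The cause of these changes was not tested. Values near the lowest intensities have little signal over background. Among them are Drd2 in hippocampus, the low sets of Casp9, Pdrg1, Nln, Sspn, Lrrc57 and Emb, and Chmp1a in BXH.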

Other observations

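Other genes called in both tissues in the same direction are picked here after their values were seen. Lower in BXH and low in C3H were Prkaa2, a catalytic subunit of the AMP-activated kinase (-1.06 in hippocampus and -0.57 in striatum, with another probe at -0.21 and 0.03), Etnppl, which breaks down phosphoethanolamine in astrocytes (-0.64 and -0.70, with another probe at -0.75 and -0.84), and Esd, an esterase that takes part in formaldehyde detoxification (-0.58 and -0.60), whose dim further probes ranged from -0.04 to 0.09. Sema5a, a guidance cue of axons, was at -1.23 and -0.55. Insig2, which holds the sterol sensor complex in the endoplasmic reticulum, was at -0.82 and -0.91 with both C3H and AJ below B6 (-1.42 and -1.23), while its other probe was at -0.20 and 0.28. Higher in BXH and low in AJ were Prcp, a lysosomal carboxypeptidase (0.80 and 0.76), Mipep, a mitochondrial peptidase (0.62 and 0.60), Mrps12, a protein of the small mitochondrial ribosomal subunit (0.55 and 0.71), and Rbbp9, a serine hydrolase (0.70 and 0.95).

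Some calls ran in opposite directions within a marker list. Wfs1, an endoplasmic reticulum protein that marks CA1 neurons, was higher in BXH hippocampus (0.53 ± 0.10, adjusted p = 0.00053 in limma) and lower in BXH striatum (-0.25 ± 0.10, adjusted p = 0.0375). Among the interneuron markers of striatum, 6 were higher and 1 lower: Cck (1.63 ± 0.25), Calb2 (1.15 ± 0.23) and Vip (1.08 ± 0.21) rose, and Reln fell by 0.24. Ptgds, a prostaglandin synthase of the meninges, rose by 0.79 ± 0.19 in striatum (adjusted p = 0.0016), where 2 of 6 tested meningeal and fibroblast markers were higher and 0 lower. The part of tissue composition in these values was not tested.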
